A study of Rattus norvegicus with 6 samples.

Results

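The embryonic globins and the regulators of red cell formation were followed in the rat heart primordium as it began to beat. The 9 genes were Hbb, Hbg1, Hba-a2, Hbz and Hbe1, which code for hemoglobin chains, and Epor, Gata1, Klf1 and Alas2, which direct red cell formation or heme supply. Their probes were found by gene symbol, ignoring case, among the 30367 probes of the array that were not controls, which gave 11 probes, under 9 of the array's 26269 gene names (symbols, or accessions where no symbol is given). A probe was tested where at least 1 group had it well above background on each of its 3 arrays, which held for 9 of the 11 probes, covering 7 genes, and for 19299 probes in all. The probes of Hbe1 and Gata1 were well above background on none of the 6 arrays and have no tested value.

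Global gene expression was measured by 1-color microarray in heart primordia taken before (3 samples) and after (3 samples) heartbeat initiation, each on an array of its own. All came from Wistar rat embryos on embryonic day 10, and the labels name no genetic change or treatment in either group. The groups were set by shape, the central heart primordium being flat in the pre-heartbeat group and raised in the post-heartbeat group, whose embryos had a slightly higher number of somites. The tissue was the whole primordium, with no sorting of cells and no separation of the heart fields, so that blood and vessel precursors were not removed. All 15 genes of a list of heart muscle markers were well above background on all 6 arrays. So were all 12 genes of a yolk sac endoderm list, so detection alone cannot show that the label fits the tissue.

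Hemoglobin carries oxygen in red cells as a tetramer of alpha-like and beta-like chains around heme. The first red cells of a mammalian embryo arise in the yolk sac and make embryonic chains, which are later replaced by adult ones. Gata1 and Klf1 switch on globin and heme genes in these cells, Epor is the receptor through which erythropoietin keeps them alive, and Alas2 catalyzes the first step of heme synthesis in them. The genes of the beta-like chains lie side by side in 1 cluster and those of the alpha-like chains in another.

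The probe sequences show which part of a gene the array measured, and those of the coding part are given here 5′ to 3′ from the array files. The Hbg1 probe is that of an embryonic beta-like chain that passed limma's adjusted p of 0.05 only where the slide was taken as a block, the Hbe1 probe gave no signal above background, and the Hba-a2 probe is that of the start of the coding sequence. Capitals mark the start codon in the Hbe1 and Hba-a2 sequences, and of the latter the 43 bases from the start codon are shown. In the Hbb-b1 and Hbe2 probes capitals mark the bases that are equal when the probes are aligned without a gap, 35 of 44 bases (79.5%), the highest share among the 11 hemoglobin probes.
Hbg1 A_42_P591944: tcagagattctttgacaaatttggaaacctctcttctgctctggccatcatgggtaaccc
Hbe1 A_44_P473067: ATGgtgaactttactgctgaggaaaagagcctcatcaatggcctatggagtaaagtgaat
Hba-a2 A_64_P032502: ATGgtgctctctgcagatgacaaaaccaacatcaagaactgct
Hbb-b1 A_64_P088393: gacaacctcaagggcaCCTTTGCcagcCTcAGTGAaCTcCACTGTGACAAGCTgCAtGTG
Hbe2 A_64_P048927: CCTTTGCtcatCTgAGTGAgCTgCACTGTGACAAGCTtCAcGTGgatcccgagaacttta

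The promoters of 5 globin and receptor genes are shown next, so that the shared boxes can be seen, as the 120 bases before the annotated start, 5′ to 3′, from RefSeq on GRCr8. No promoter entry was found for Hbg1 or Hbe2. Capitals mark 4 short motifs searched on both strands. They are the CCAAT box, the CACCC box that Klf1 binds, the ATAAA core of the TATA box and the GATAA core of the Gata1 site. None of the matches shown overlapped another.
Hbb, chr1:167663722-167663841, minus strand: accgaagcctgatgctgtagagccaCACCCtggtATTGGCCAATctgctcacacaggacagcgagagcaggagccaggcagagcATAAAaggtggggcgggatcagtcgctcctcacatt
Hbb-b1, chr1:167643521-167643640, minus strand: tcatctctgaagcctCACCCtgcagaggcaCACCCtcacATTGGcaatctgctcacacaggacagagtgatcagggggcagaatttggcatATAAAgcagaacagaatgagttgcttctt
Hba-a1, chr10:15842581-15842700, minus strand: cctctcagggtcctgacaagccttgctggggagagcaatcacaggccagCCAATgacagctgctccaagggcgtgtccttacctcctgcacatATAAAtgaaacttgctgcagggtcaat
Hbz, chr10:15849758-15849877, minus strand: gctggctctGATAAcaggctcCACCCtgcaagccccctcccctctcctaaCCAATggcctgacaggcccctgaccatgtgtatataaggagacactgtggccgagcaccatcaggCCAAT
Epor, chr8:28770323-28770442, minus strand: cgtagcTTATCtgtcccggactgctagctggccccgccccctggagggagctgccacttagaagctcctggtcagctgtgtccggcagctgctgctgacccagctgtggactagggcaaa
The Hbb and Hbb-b1 windows both held the CCAAT box, the CACCC box and the ATAAA core, a set of 3 motifs found together in 0.956% of 33469 rat promoters. Among all these promoters the CCAAT box was present in 19.9%, the CACCC box in 29.5%, the ATAAA core in 21.5% and the GATAA core in 11.2%. The Hba-a1 window held the CCAAT box and the ATAAA core. The Hbz window held CCAAT at -70 and at -5 from the start, the CACCC box and the GATAA core. It held no ATAAA but does hold tatataa, so the search does not show that it lacks a TATA box. The Epor window held the GATAA core alone. Further windows were searched and are not printed. Those of Hbe1 and of Hba-a2 in RefSeq held the CCAAT box and the ATAAA core alone. That of Klf1 held the CCAAT box, the CACCC box and the GATAA core, that of Gata1 the CACCC box alone, and that of Alas2 none of the 4 motifs.

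Values are given below as log2 signal relative to the 75th percentile of each array, in the order of replicates 1, 2 and 3, and a difference is post-heartbeat minus pre-heartbeat on the log2 scale. The arrays lay on 2 slides, with replicate 1 of both groups and post-heartbeat replicate 2 on slide 1 and the rest on slide 2. The slides were told apart by the first principal component (60.3% of the variance) and the groups by the second (16.6%), and 16.3% of the tested probes differed between slides, so values of the member probes with the slide as a block and within slides are given beside their differences. Levels of different probes are not comparable with each other. In a whole tissue, a change in the number of red cell precursors and a change in RNA per cell cannot be told apart.

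None of the 9 tested member probes passed limma's adjusted p of 0.05 in either direction, against 0.119% of all tested probes called higher and 0.0207% called lower. In the fit that takes the slide as a block, Epor and Hbg1 were called higher, 2 of the 9, against 1.16% of all tested probes, and none was called lower, against 0.461%. At an unadjusted p under 0.05 4 member probes were higher (3.91% of all tested probes) and 1 was lower (3.1%). The same 4 probes, of Hbb, Hbg1 and Epor, also passed the selection of the study's methods, a change of at least 1.5 fold with an unadjusted p under 0.05, which took 1.89% of all tested probes as higher and 1.15% as lower. The pre- and post-heartbeat arrays did not overlap in 4 probes that were higher (5.38% of all tested probes) and 1 that was lower (6.14%). With 3 arrays against 3 an exact two-sided permutation test cannot go below p = 0.1, the value of each of these 5 probes.

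**Figure D1:**
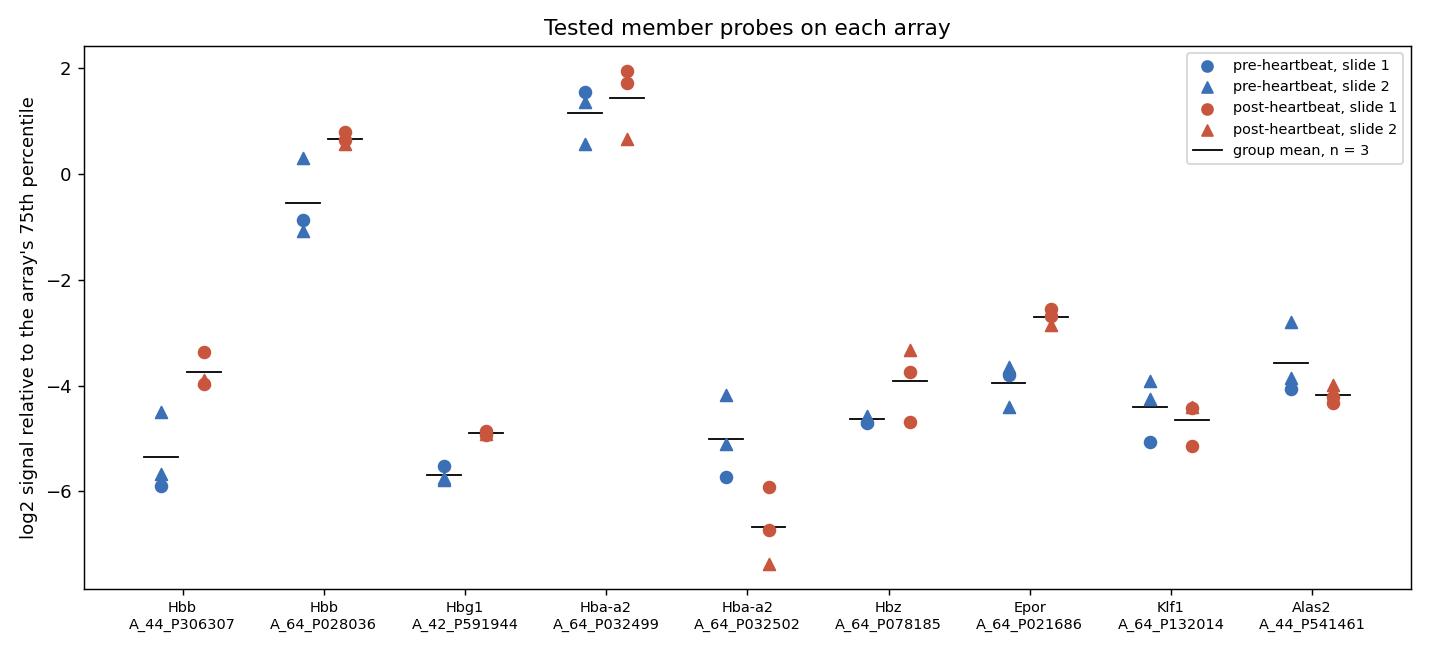
Log2 signal relative to the array's 75th percentile (y axis) of the 9 tested member probes (x axis) on each of the 6 arrays, with circles for slide 1, triangles for slide 2 and lines for the group means. Both Hbb probes, Hbg1 and Epor have all post-heartbeat arrays above all pre-heartbeat arrays, and the dim Hba-a2 probe has them below.

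Hbb codes for the adult beta chain and was measured by 2 probes on chromosome 1 of rn4, the build of the array's annotation. The bright probe (A_64_P028036, chr1:161584872-161584931, minus strand) holds the polyadenylation signal AATAAA of the end of a transcript, and its annotation also lists transcripts of Hbb-b1 and of a further beta-like gene, so it does not separate them. Its signal was -0.87, 0.29 and -1.08 before heartbeat initiation and 0.78, 0.64 and 0.56 after it. The post-heartbeat arrays lay close together and above all pre-heartbeat arrays, of which replicate 2 was nearest to them. The difference was 1.22 ± 0.35 (SE, n = 3 against 3), 2.32 fold, with a limma adjusted p of 0.361. It was 1.59 within slide 1 and 0.95 within slide 2, and the blocked fit gave 1.27 with a limma adjusted p of 0.159.

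The other Hbb probe (A_44_P306307, chr1:161620134-161620193, minus strand) was dim, and its first 50 bases equal those after the annotated start of Hbb in RefSeq (50 of 50). The 2 Hbb probes lie 35.3 kb apart in rn4 with both Hbb-b1 probes between them, so they need not measure 1 transcript. It gave -5.90, -4.50 and -5.68 before and -3.36, -3.97 and -3.90 after heartbeat initiation. Again the groups did not overlap and pre-heartbeat replicate 2 was the highest of its group. The difference of 1.61 ± 0.38 (SE) had a limma adjusted p of 0.237, and with the slide as a block it was 1.71 with an adjusted p of 0.0748. It was 2.24 within slide 1 and 1.18 within slide 2. With normexp background correction, which fits the background of each array from its mean and background signals, the difference was 0.72 (limma adjusted p = 0.649). This setting also adds an offset of 50 units, which makes log2 differences of dim probes smaller. How much of the drop came from the offset was not tested, here or for the other dim probes. The copies of this Hbb probe on 1 array differed by an SD of up to 0.44.

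Hbg1 codes for an embryonic beta-like chain and was measured by 10 copies of 1 probe (chr1:161641432-161641491). Its signal was -5.53, -5.78 and -5.75 before, where it was well above background on 2 of 3 arrays, and -4.86, -4.93 and -4.92 after. The groups were apart, and each group was narrow. The difference was 0.78 ± 0.14 (SE), 1.72 fold, with a limma adjusted p of 0.115. Hbg1 rose by 0.74 in the blocked fit, with a limma adjusted p of 0.0421, and the difference was 0.63 within slide 1 and 0.84 within slide 2. With normexp background correction it was 0.22 (limma adjusted p = 0.951).

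The other probes of the beta-like cluster were those of Hbb-b1, an adult chain, Hbe2, an embryonic chain, and LOC689064, named Hbb-bs in the current RefSeq annotation. The Hbb-b1 probe printed above gave -1.93, -0.47 and -2.0 before and -0.09, -0.32 and -0.51 after heartbeat initiation, a difference of 1.16 ± 0.41 (SE, limma adjusted p = 0.543). The second Hbb-b1 probe differed by 1.09 ± 0.37 (limma adjusted p = 0.510). Hbe2 gave -3.45, -1.69 and -3.25 before and -1.66, -1.81 and -1.79 after, a difference of 1.04 ± 0.44 (limma adjusted p = 0.712). In all 3 of these probes the groups overlapped through pre-heartbeat replicate 2, which lay among the post-heartbeat arrays while the other pre-heartbeat arrays lay below them. LOC689064 was dim, with a difference of -0.59 ± 0.55 (limma adjusted p = 0.866).

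Of the 7 tested probes of the cluster, 6 had a positive difference, and the same 6 were positive within both slides. Pre-heartbeat replicate 2 was the highest pre-heartbeat array in 6 of the 7, while it was the highest in 50.6% of all tested probes. Some of these probes list shared transcripts, so they are not independent measurements. In the blocked fit without pre-heartbeat replicate 2, a setting chosen after seeing the data, both Hbb probes (2.04 and 1.61), Hbg1 (0.71), both Hbb-b1 probes (1.49 and 1.63) and Hbe2 (1.60) had limma adjusted p between 0.0117 and 0.0427. Leaving out another array in the blocked fit gave other calls: both Hbb-b1 probes and Hbe2 had adjusted p above 0.05 for each of the other 5 arrays, and Hbg1 did so too. Without post-heartbeat replicate 2, the dim Hbb probe (limma adjusted p = 0.0260) and Hbz (0.0111) were called higher.

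**Figure D2:**
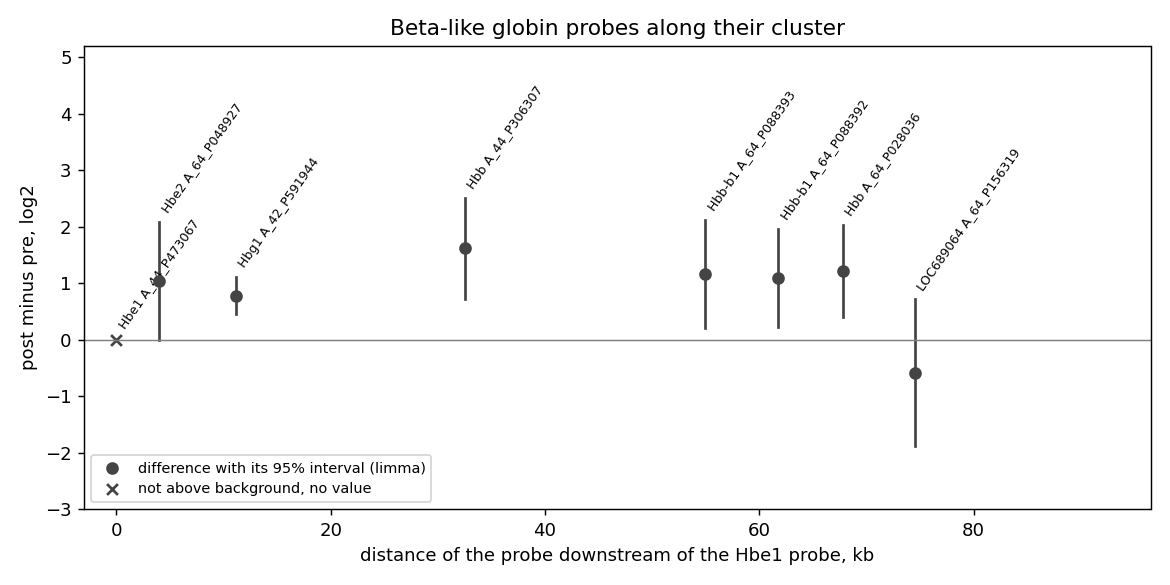
Post-heartbeat minus pre-heartbeat difference on the log2 scale (y axis) of the beta-like globin probes against their distance in kb downstream of the Hbe1 probe in rn4 (x axis), with points for the difference and lines for its 95% interval in limma. Of the 7 tested probes 6 lie above 0, LOC689064 lies below, and the cross is Hbe1, which has no value.

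Hbe1, an embryonic beta-like chain, was not well above background on any array with its probe for the start of the coding sequence (chr1:161652643-161652702). At the signal of these arrays no level or difference can be given for it.

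Neither of the 2 probes for the alpha chain passed the test. The symbol Hba-a2 of the array stands for a transcript that the current RefSeq annotation names Hba-a1, an adult alpha chain. Its bright probe (A_64_P032499, chr10:15584360-15584419), which holds AATAAA, gave 1.55, 1.36 and 0.56 before and 1.95, 1.71 and 0.66 after heartbeat initiation. The groups overlapped, and the lowest array of each group was on slide 2. The difference was 0.28 ± 0.40 (SE) with a 95% interval from -0.65 to 1.22 and a limma adjusted p of 0.866, and the blocked fit gave -0.0099, with 0.28 within slide 1 and -0.30 within slide 2. This was the single member probe that differed between slides, by -0.88 (slide 2 minus slide 1, limma adjusted p = 0.0447, against 16.3% of all tested probes).

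The dim Hba-a2 probe, whose coding part is printed above (A_64_P032502, chr10:15585140-15585199), went the other way. It gave -5.72, -4.18 and -5.10 before and -5.92, -6.73 and -7.37 after, and it exceeded background clearly on each of the 3 arrays before heartbeat initiation and on 0 after it. The difference was -1.67 ± 0.48 (SE), 3.19 fold, with a limma adjusted p of 0.361. This fold is an estimate and not a lower bound, and the post-heartbeat signal near background leaves its size uncertain. The probe was tested through its pre-heartbeat detection alone. The probe had 1 spot per array and lists a second alpha-like transcript. Replicate 1 of the groups, both on slide 1, were -5.72 and -5.92. With normexp background correction the difference was -0.46 (limma adjusted p = 0.951), and in the blocked fit without post-heartbeat replicate 3 it was -0.60 (0.929), against -1.67 with all arrays in that fit (0.191). It was -0.60 within slide 1 and -2.73 within slide 2. The probes of this gene disagreed in direction. Taken per array, the bright Hbb signal minus the bright Hba-a2 signal differed between the groups by 0.93, with an exact two-sided permutation p of 0.2.

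Hbz codes for the embryonic zeta chain, the alpha-like chain of the first red cells. Its single spot (chr10:15590914-15590973) gave -4.71, -4.64 and -4.57 before and -3.74, -4.70 and -3.32 after. Post-heartbeat replicates 1 and 3 were above all pre-heartbeat arrays and replicate 2 was among them. The difference was 0.72 ± 0.33 (SE), with a 95% interval from -0.06 to 1.51 and a limma adjusted p of 0.787. It was 0.49 within slide 1 and 1.29 within slide 2, 0.89 in the blocked fit (limma adjusted p = 0.259) and 0.34 with normexp background correction (0.951).

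**Figure D3:**
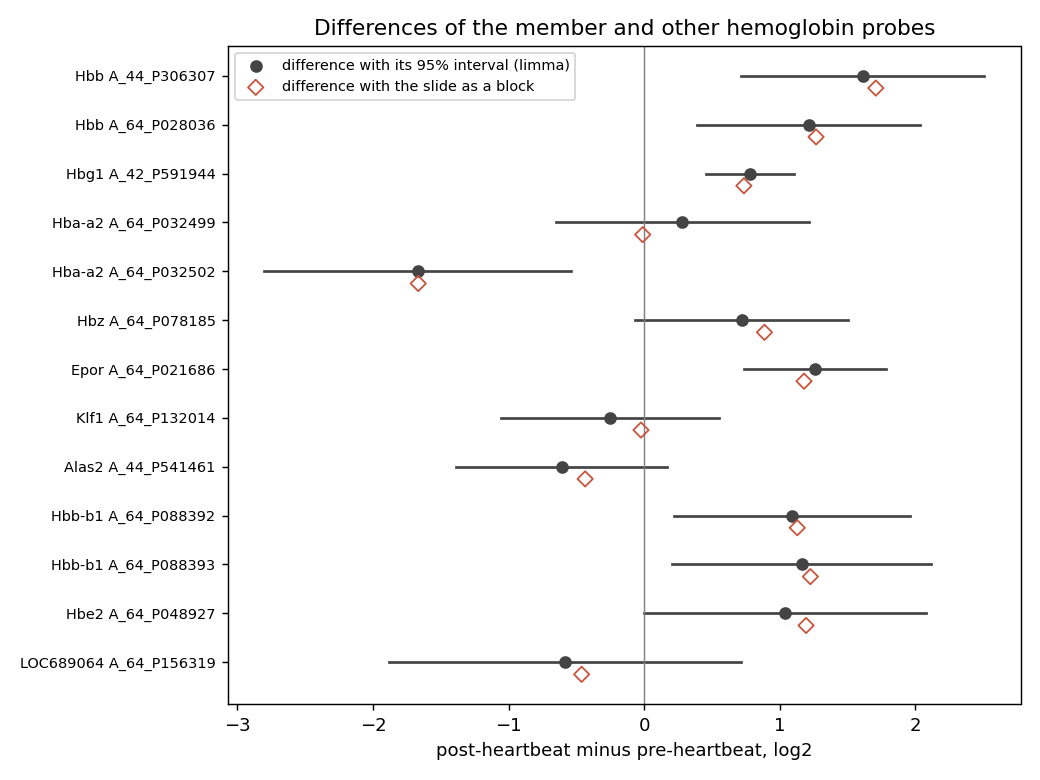
Post-heartbeat minus pre-heartbeat difference on the log2 scale (x axis) of the 9 tested member probes and the 4 other hemoglobin probes (y axis), with points and lines for the difference and its 95% interval in limma and diamonds for the difference with the slide as a block. The Hba-a2 bright probe lies at 0.28 without and at -0.0099 with the block, and Epor at 1.26 and 1.18.

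Epor, the receptor for erythropoietin, had the lowest adjusted p of the regulators. Its probe (chr8:21061326-21061385) gave -3.80, -4.41 and -3.66 on the pre-heartbeat arrays and -2.68, -2.56 and -2.85 on the post-heartbeat arrays. All post-heartbeat arrays were higher than all pre-heartbeat arrays, and the gap between the groups was wider than the spread of the post-heartbeat arrays. The difference was 1.26 ± 0.22 (SE), 2.39 fold, with a limma adjusted p of 0.115. Epor rose by 1.18 in the blocked fit, with a limma adjusted p of 0.0397, and the difference was 1.18 within slide 1 and 1.18 within slide 2. With normexp background correction it was 0.80 (limma adjusted p = 0.0784). Pre-heartbeat replicate 2, the highest pre-heartbeat array of most beta-like probes, was the lowest array for Epor. The blocked call held without the latter, pre-heartbeat replicate 3 or post-heartbeat replicate 2, and was lost without pre-heartbeat replicate 1 (limma adjusted p = 0.396), post-heartbeat replicate 1 (0.0849) or post-heartbeat replicate 3 (0.387).

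Klf1, the factor that binds the CACCC box of the beta globin promoter, gave -5.06, -3.91 and -4.25 before and -4.42, -5.15 and -4.41 after (chr19:24908511-24908570). The groups overlapped, and the difference was -0.25 ± 0.34 (SE) with a 95% interval from -1.05 to 0.56 (limma adjusted p = 0.866). It was 0.28 within slide 1, -0.33 within slide 2, -0.02 in the blocked fit and -0.14 with normexp background correction. Alas2, the first enzyme of heme synthesis in red cells, gave -4.07, -2.80 and -3.85 before and -4.22, -4.33 and -3.99 after (chrX:39810353-39810412). Its pre-heartbeat replicate 2 was above the other 5 arrays, which lay between -4.33 and -3.85, and the difference was -0.61 ± 0.33 with a 95% interval from -1.39 to 0.17 (limma adjusted p = 0.866). It was -0.21 within slide 1, -0.66 within slide 2, -0.43 in the blocked fit and -0.38 with normexp background correction. Gata1, the master factor of red cells, was not well above background on any array at its probe (chrX:26570758-26571261, a span longer than the 60 bases of the probe).

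The wider set of red cell genes held 92 genes in 6 lists, of which 69 had a tested probe, each gene taken at its brightest. Of the 69 genes, 1 was called higher and 0 lower by limma (9 and 1 at an unadjusted p under 0.05), and 4 higher and 0 lower with the slide as a block. The median difference of the 69 was 0.04, and that of all 16792 gene names with a tested probe was -0.03. The number of these 69 genes with a positive difference was 41, and over all 16792 it was 7571. Of the 16792, 20 were called higher and 4 lower by limma (659 and 513 at an unadjusted p under 0.05), and 197 and 80 with the slide as a block.

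The limma call and 3 of the 4 blocked calls lay in the red cell membrane list, of which 7 of 18 genes were tested, and the other blocked call was Epor. Aqp1, a water channel that is also made in endocardium and vessels, was -4.12, -3.87 and -3.98 before and -2.86, -2.68 and -2.65 after. It rose by 1.26 ± 0.14 (SE), with a limma adjusted p of 0.0423, and by a similar amount in both slides (1.35 and 1.28), but its adjusted p lay between 0.106 and 0.279 with any 1 array left out, and with normexp background correction it differed by 0.81 (limma adjusted p = 0.0957). Ank1, an ankyrin that is also made in muscle, differed by 1.25 ± 0.20 (limma adjusted p = 0.0960), and Tmod1, a cap of actin filaments in red cells and in heart muscle, by 0.86 ± 0.29 (0.497). Ank1 and Tmod1 were called higher in the blocked fit (limma adjusted p = 0.0232 and 0.0310). The mean of the 7 genes ran from -3.60 to -3.49 before heartbeat initiation and from -2.90 to -2.84 after it. Detection in this list was mixed. All 7 tested genes, among them Rhd, Gypc and Sptb, were well above background on all 6 arrays. Another 6 genes, among them Slc4a1, Epb42, Rhag and Kel, were so on none.

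The medians of the other lists lay between -0.03 and 0.19. Among transcription factors (15 of 18 tested, median difference 0.03) none was called. The largest differences were those of Zfpm1, the partner of Gata1 (0.92 ± 0.57, and 0.52 in the blocked fit), and Nfe2, a factor of late red cells. Nfe2 differed by 0.88 ± 0.28 (limma adjusted p = 0.427), and by 0.16 with normexp background correction. Its groups were barely apart, with replicate 3 at -5.58 before and -5.55 after. It was well above background on 2 of 3 arrays before heartbeat initiation, and its copies on 1 array differed by an SD of up to 1.06. In erythropoietin and Kit signalling (11 of 12 tested, median 0.19) Epor was called with the slide as a block, and Stat5b and Lyn, which act after the receptor, passed the selection of the methods but not limma. Stat5b differed by 0.67 ± 0.14 (limma adjusted p = 0.179), and by 0.43 with normexp background correction. Lyn was well above background on 0 of 3 arrays before and 3 of 3 after heartbeat initiation, and was tested through the latter alone. Its difference was 0.80 ± 0.23 (SE, limma adjusted p = 0.365), and the pre-heartbeat signal near background leaves its size uncertain. With normexp background correction Lyn differed by 0.08, and its copies on 1 array differed by an SD of up to 1.35. Epo itself was not well above background. In heme synthesis and breakdown (16 of 17 tested, median 0.03) the largest differences after that of Alas2 were 0.44 for Abcb10 and -0.22 for Alas1, the enzyme that starts heme synthesis in all cells. In iron uptake and storage (9 of 12 tested) the exporter Slc40a1 differed by -0.44 ± 0.14 (limma adjusted p = 0.426) and the iron importer Slc11a2 by -0.16. In maturation and red cell enzymes (11 of 15 tested, median -0.03) the largest were Cat at -0.50 and Ahsp, the chaperone of free alpha chains, at 0.46 ± 0.16, and Hemgn was not well above background.

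**Figure D4:**
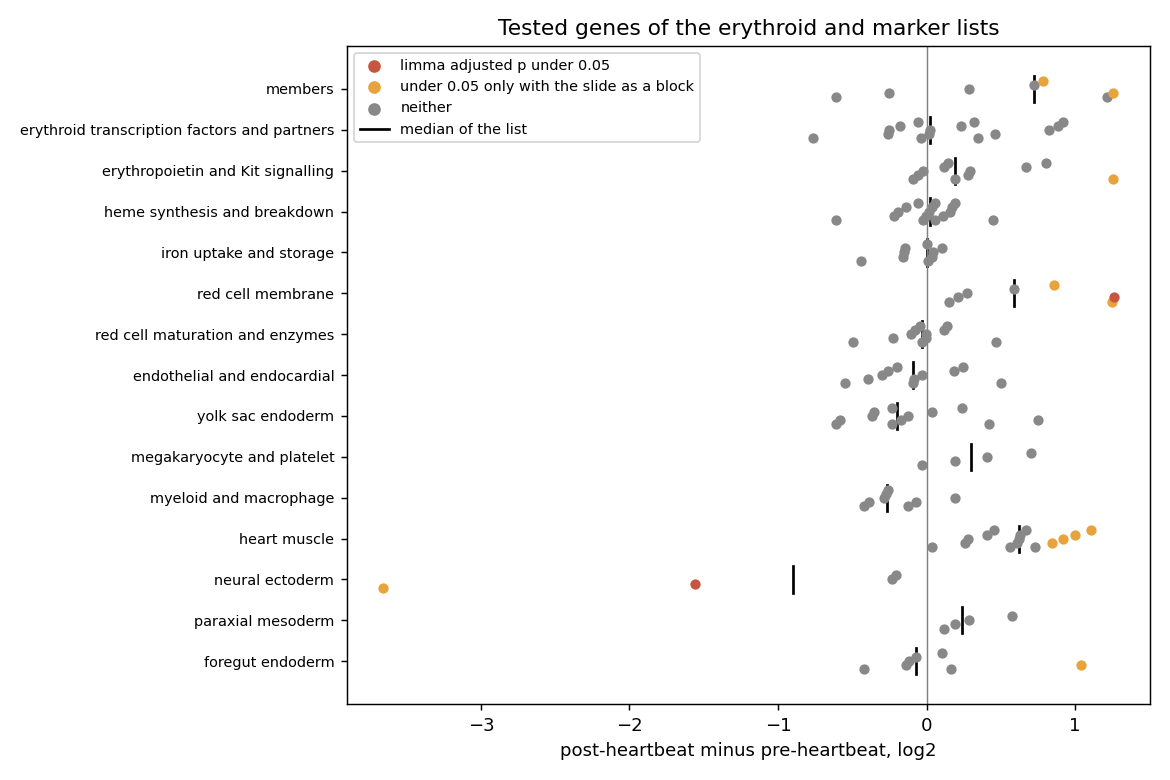
Post-heartbeat minus pre-heartbeat difference on the log2 scale (x axis) of each tested gene in the red cell lists and in lists of markers of other cells (y axis), with lines for the median of a list and color for the call. In the red cell lists, calls are seen for Epor, Hbg1, Aqp1, Ank1 and Tmod1.

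Markers of other cells that the primordium could hold were read on the same arrays. The mean of 15 heart muscle markers was 2.66, 3.03 and 3.04 before and 3.52, 3.54 and 3.50 after, with a median difference of 0.62. With the slide as a block 4 of the 15 were called higher, and by limma without it 0. Of all 16792 gene names with a tested probe, 197 were called higher and 80 lower with the block. Without the block these numbers were 20 and 4. The endothelial and endocardial list (11 genes) had a median difference of -0.09, with means from -1.43 to -1.22 before and from -1.46 to -1.33 after. The yolk sac endoderm list (12 genes) had a median of -0.20 (-0.52 with the slide as a block), and its mean was 0.77, -0.30 and 0.38 before and 0.48, 0.45 and -0.39 after, lowest on pre-heartbeat replicate 2 and post-heartbeat replicate 3. The myeloid and macrophage list had 8 of 11 genes tested, all 8 well above background on all 6 arrays, while Ptprc and Spi1, which mark leukocytes at large, were so on none. Its median was -0.27, with means from -3.81 to -3.60 before and from -4.00 to -3.83 after. In 3 of the 8 genes the post-heartbeat arrays lay below all pre-heartbeat arrays, as they did in 1045 of all 16792 gene names. The megakaryocyte and platelet list had 4 of 9 genes tested, 3 of them well above background on all 6 arrays, and 4 genes, among them Pf4, Ppbp and Gp1ba, were so on none. Its median was 0.30, with means from -4.35 to -3.93 before and from -3.79 to -3.75 after. The neural ectoderm list had 4 of 8 genes tested and a median of -0.90 (-1.01 with the slide as a block), and its mean was -1.31, -1.98 and -1.75 before and -2.61, -3.38 and -3.29 after. Otx2, a factor of the anterior neural tube, fell by 1.56 (limma adjusted p = 0.0199), and Lmx1a, a factor of the dorsal neural tube, was called lower with the slide as a block (limma adjusted p = 0.00391). The paraxial mesoderm list (4 of 7 tested) had a median of 0.24 (0.14 in the blocked fit) and no call. The foregut endoderm list (7 of 8 tested) had a median of -0.07 (0.0062 in the blocked fit), and 1 of its genes, Nepn, was called higher in the blocked fit. The part of heart muscle, yolk sac, neural or other cells in the globin and Epor values was not tested.

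The genes most like the globins across arrays were sought by the correlation with the mean of 4 member globin probes (both of Hbb, the bright one of Hba-a2 and that of Hbz, the ones detected on every array), over 6 arrays and 6764 probes. Among the 6 closest were Maff (r = 0.981, rho = 1.0), Micalcl (0.976, 1.0), Coro6 (0.973, 0.943), Fam81a (0.963, 0.943) and Corin (0.962, 0.943). Maff and Fam81a were well above background on none of the pre-heartbeat arrays. Without the 2 arrays farthest from the median, pre-heartbeat replicates 1 and 3, r was between 0.780 and 0.999. With so many candidates and 6 arrays such values are a description, and no p is given. Corin, a protease of heart muscle that activates natriuretic peptide, had a difference of 1.14 (limma adjusted p = 0.224, and 0.0488 with the slide as a block).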

How the data were processed

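Heart primordium RNA of 3 pre-heartbeat and 3 post-heartbeat samples was hybridized by the authors to 1-color Agilent rat arrays and read with Agilent Feature Extraction 10.7.3.1 (submitters' processing notes). The deposited scanner values used here are processed intensity per spot, background-subtracted and not normalized between arrays. The authors also deposited ratios on a linear scale, made by a 75th percentile shift and a baseline in GeneSpring, which served as an alternative. Control and outlier spots were left out, log2 intensity less the array's 75th percentile (1146 to 1702 units) was averaged over the spots of a probe, and 0 spots were saturated. The number of arrays limits the precision. Probes that every array of at least 1 group showed well above background were tested with limma 3.58.1 in R 4.3.3, with Benjamini-Hochberg adjustment over 19299 probes at 0.05. The slide is the barcode of the array. In simulated data of 19297 probes with 100 probes changed by each size, the test recovered 48% of 2 fold and 79% of 4 fold changes. It also called 6 unchanged probes. Each probe was drawn independently, without the shared slide effect of the real arrays, so these rates need not hold for them. Alternatives were the slide or the replicate number as a block, normexp with an offset of 50, quantile normalization, another percentile base, the deposited ratios, 2 other filters, the study's pooled test, an intensity trend and leaving out each array. Members and lists were chosen with earlier results of these data known. Genes named are the members, the other hemoglobin probes, the called or selected genes of each list (otherwise the 2 with the largest difference) and the 6 most like the globins. A few genes that this rule or the lists name are not reported here. Sequences came from the array files and RefSeq, and figures were drawn with matplotlib.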

Additional observations from a re-analysis of the deposited data

How the results depend on the processing

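Alternatives changed calls more often than directions. The slide as a block gave 223 probes higher and 89 lower, against 23 and 4, with 2 member probes and 4 genes of the red cell lists higher, and turned the bright Hba-a2 probe to -0.0099. With the replicate number as a block 95 and 49 probes and 2 list genes were called, and no member probe (Epor, adjusted p = 0.0590). To see whether the numbers pair the samples, the group mean of each tested probe was subtracted from its values. These deviations of same-numbered arrays correlated at 0.65, -0.28 and 0.49. Not every sample correlated best with its own number. The slide was left in these values, and the deviations of arrays of the 2 groups correlated positively within a slide and negatively across slides. Deviations within a group cancel out, so positive values for some pairs push those of other pairs down. Replicate 2 of the groups lay on different slides, so these values cannot show whether the numbers pair the samples. Probes higher and lower numbered 43 and 7 with normexp, 1 and 0 with no filter, 0 and 0 with the methods' test after adjustment, and 38 and 7 with an intensity trend, and those higher 11 with quantile normalization, 12 with the other percentile base and 10 with the deposited ratios. The methods' selection took 365 as higher and 222 as lower, with 4 member probes and 5 list genes higher. In normexp, quantile normalization, the other percentile base, the deposited ratios, no filter and the adjusted methods' test 0 list genes were called, and Aqp1 had adjusted p between 0.0589 and 0.182. The member probe that differed between slides was lost (0 called) with quantile normalization.

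Leaving out 1 array gave 0 to 1 higher and 0 to 1 lower probes, 0 member probes, 0 list genes and 0 to 1 member probes between slides. The bright Hba-a2 probe then ranged from -0.016 (without pre-heartbeat replicate 3) to 0.67, and LOC689064 from -1.08 to 0.019 (without post-heartbeat replicate 2).

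With the slide as a block and 1 array left out, added after the data were seen, 0 to 297 probes were higher (230 without pre-heartbeat replicate 3, 90 and 200 without the first and the second post-heartbeat array) and 1 to 139 lower (103 and 121 without pre-heartbeat replicate 3 and post-heartbeat replicate 2), and 0 to 4 member probes, 0 to 3 other hemoglobin probes and 0 to 6 list genes were higher. The bright Hba-a2 probe turned to -0.30, -0.14 and -0.10 without pre-heartbeat replicates 1 and 3 and post-heartbeat replicate 1. Klf1 turned to 0.094, 0.090 and 0.28 without pre-heartbeat replicate 2, post-heartbeat replicate 2 and post-heartbeat replicate 3, and LOC689064 to 0.0042 without post-heartbeat replicate 2. The probes of Hbb, Hbg1, Hbz, Epor, Hbb-b1 and Hbe2 kept a positive difference under every alternative run, and the causes of the changes above were not tested.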
